A study of Mus musculus with 4 samples.

Results

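The genes described here form the axis from the insulin-like growth factor receptor through the insulin receptor substrates, phosphoinositide 3-kinase (PI3K) and AKT to the FOXO transcription factors, in mouse blood stem and progenitor cells that lack SRC-3. The axis was taken as 8 genes, Igf1r, Irs1, Irs2, Pik3r1, Akt1, Akt2, Foxo1 and Foxo3, of 22180 genes measured in all. Every probe set that the platform annotation assigned to a single one of these genes was used. This gave 10 of the 23521 single-gene probe sets on the array, with 2 probe sets each for Irs1 and Foxo1. A further probe set, annotated to Irs2 together with another gene, was left out. Each sample was 1 Affymetrix array of total RNA from LSK cells. These are bone marrow cells sorted for Sca1 and c-Kit and for the lack of lineage markers, a gate that contains the blood-forming stem cells and the earliest progenitors. The 2 WT samples came from wild-type mice and the 2 KO samples from SRC-3 knockout mice, all males aged 8 weeks and without any treatment named in the labels. The knockout allele, the strain, and the number of mice behind a sample are not stated by the labels. The labels call the samples of a genotype biological replicates without naming separate mice, and the p-values measure the spread between these samples.

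In this pathway a growth factor receptor at the cell surface phosphorylates a substrate protein, which recruits PI3K, and the lipid that PI3K makes brings AKT to the membrane and activates it. Active AKT phosphorylates FOXO proteins, which then leave the nucleus and stop driving their targets. In blood stem cells FOXO factors are known for holding cells in quiescence and for limiting reactive oxygen species, while persistent AKT activity is known to exhaust the stem cell pool. SRC-3, the product of Ncoa3, is a coactivator of nuclear receptors that has also been linked to growth factor signalling. The arrays measured transcript levels, so they give no information on phosphorylation or on where a FOXO protein was in the cell.

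The labels held up on the targeted gene. Ncoa3 stood at 7.76 and 7.05 (log2) on the WT arrays and at 5.35 and 5.09 on the KO arrays, a difference of -2.19 ± 0.27 (SE, limma adjusted p = 0.038). With KO replicate 1 or KO replicate 2 left out its adjusted p was 0.72 or 0.55, the highest over its alternatives, where the lowest was 0.0082. Of the listed LSK genes, Kit, Cd34 and Ptprc had group means of 9.99, 10.80 and 9.32 in WT and 9.38, 10.11 and 8.58 in KO. Ly6a, which encodes Sca1, was not analysed here, so these levels do not establish the gate. Of 13 measured LSK genes, 9 had both KO arrays below both WT arrays, as did 22.9% of all genes. Another 2, Slamf1 at 0.18 and Cd48 at 0.14, had both above, as did 25.1% of all genes. The median difference of the 13 was -0.50. Markers of cells that the sort should remove were not absent, although red cells had been lysed beforehand. Erythroblast markers summed to 205 and 235 on the linear scale in the WT arrays and to 795 and 744 in the KO arrays, and 4 of 8 rose in limma, Rhag by 12.7-fold (adjusted p = 0.009). Slc4a1, the red cell anion exchanger of the same list, had both KO arrays below both WT arrays (-0.96, adjusted p = 0.13), and Trim10 was at 0.10. Neutrophil markers summed to 11960 and 9645 in WT and to 13871 and 13976 in KO, macrophage and dendritic cell markers to 4062 and 4663 in WT and to 6868 and 7318 in KO, with 0 of 16 and 2 of 16 past the threshold. Sums of T and NK cell markers were 938 and 1255 in WT and 1398 and 1469 in KO, and those of mast cell and basophil markers 537 and 888 in WT and 1041 and 980 in KO, with 1 higher in each. B lineage and stroma markers had lower sums in KO, 402 and 411 against 480 and 566, and 540 and 559 against 871 and 763, and megakaryocyte markers higher ones, 570 and 561 against 408 and 449, with 0 past the threshold. Of all genes, limma called 0.397% higher and 0.113% lower. The brightest genes weigh most on such sums. These were Mpo, Ctsg, Elane and Prtn3 for neutrophils, Ly6c2 for macrophages and dendritic cells, and Nkg7 for T and NK cells. Mpo, Ly6c2 and Nkg7 had WT means of 11.97, 11.49 and 9.88 (log2). A sum thus does not show whether the dimmer markers of its list moved. Whether the sorted cells themselves expressed these bright genes was not tested, so a sum does not measure cells outside the gate alone. No defining marker was at 0 on this scale, but the T cell gene Cd3d, at a WT mean of 2.94 and a KO mean of 3.13 (log2), and the neutrophil gene Ly6g, at 2.87 and 2.81, were near the bottom of the array. Fewer cells of a type and less RNA per cell cannot be told apart in such samples.

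Mean levels of the axis genes were lower in KO for 8 of 8, as for 50.2% of all genes (median difference -0.58, log2). The same median was -0.00 over all genes and 0.04 over the brighter genes, which are the 11090 whose level was no lower than that of the median gene. Irs2, Foxo1 and Pik3r1 had the smallest p-values. No member passed the threshold, an adjusted p under 0.05 over all genes in limma. That rule called 0.113% of all genes lower and 0.397% higher, and 0.198% and 0.739% of the brighter ones. Nominally, which here means a limma p under 0.05 before adjustment, 5 of 8 members were lower, Igf1r, Irs2, Pik3r1, Foxo1 and Foxo3, and 0 were higher. Of all genes, 6.93% were nominally lower and 10.5% nominally higher, and of the brighter genes 9.55% and 17.5%.

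Irs2 encodes the adaptor that links insulin and IGF receptors to PI3K in many tissues. Its level was 7.61 and 6.93 (log2) on the WT arrays and 5.96 and 6.19 on the KO arrays. Both KO arrays lay below both WT arrays, with a gap of 0.74 between the lower WT array and the higher KO array, although the WT arrays were themselves 1 high and 1 lower. The WT mean was 7.27 ± 0.49 and the KO mean 6.08 ± 0.16 (SD, n = 2), which is 2.29-fold lower in KO. The difference of -1.19 ± 0.26 (SE) had an unadjusted limma p of 0.0031 and an adjusted p of 0.11. By its size it ranked 63 from the lowest among the 22180 genes.

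Irs1 encodes the sister adaptor. Its brighter probe set gave 3.43 and 3.60 in WT and 3.32 and 3.26 in KO (log2), and the dimmer gave 2.97 and 3.47 in WT and 3.12 and 2.85 in KO. Both lay below the level of the median gene, 4.32. The differences were -0.22 ± 0.17 and -0.24 ± 0.22 (SE), with adjusted p-values of 0.56 and 0.65 in the limma fit over all single-gene probe sets, which called 0.0893% of them lower and 0.323% higher. The groups did not overlap in the brighter set and did overlap in the dimmer. Whether Irs1 and Irs2 differed in their response was not tested.

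The promoters of both substrate genes were searched because forkhead factors are known to act on insulin response sequences, and because these genes were measured side by side here. The windows came from RefSeq (build GRCm38.p6), 250 bases before to 50 bases after each annotated start, and all 8 members had at least 1. Both strands were searched for TGTTTTG, the core of an insulin response sequence, TGTTTAC, a forkhead site, and CACGTG, an E-box. The stretches below hold every match found in the members' windows, 5′ to 3′ along the gene's strand, with the matched letters in capitals.
Irs2: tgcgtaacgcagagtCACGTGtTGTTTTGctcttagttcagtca
Irs1: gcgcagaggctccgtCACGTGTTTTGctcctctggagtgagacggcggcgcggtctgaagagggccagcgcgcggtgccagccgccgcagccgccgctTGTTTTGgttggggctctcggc
Akt1: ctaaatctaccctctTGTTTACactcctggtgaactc

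The Irs2 stretch is chr8:11008945-11008988 on the minus strand, with the E-box beginning at -44 and TGTTTTG at -37 from the start. The Irs1 stretch is chr1:82291450-82291569, also minus, with the E-box beginning at -115, TGTTTTG overlapping it in part at -111, and a further TGTTTTG at -32. The Akt1 stretch is chr12:112675024-112675060, minus, with TGTTTAC beginning at -161 from the upstream of its 2 annotated starts. TGTTTTG was present in 6.28% of all 32851 windows, TGTTTAC in 3.65% and CACGTG in 7.15%, and 0.408% held both TGTTTTG and CACGTG, as the Irs genes do. The windows of Igf1r, Pik3r1, Akt2, Foxo1 and Foxo3 held none of these letters. A match describes the sequence and not a bound site. Irs2, whose difference was the largest of the 8, and Irs1, which was dim, thus share the pair of motifs.

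Igf1r encodes the receptor for insulin-like growth factor. It was measured at 7.22 and 6.75 in WT and at 6.62 and 6.09 in KO (log2). The groups stood apart by 0.13, less than the spread within either. The means of 6.98 ± 0.34 and 6.36 ± 0.37 (SD, n = 2) differed by -0.63 ± 0.26 (SE, limma unadjusted p = 0.048, adjusted p = 0.28).

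Pik3r1 encodes p85 alpha, the regulatory subunit that docks PI3K on the phosphorylated substrates. It stood at 9.78 and 9.50 in WT and at 8.99 and 8.92 in KO (log2). Both pairs were tight, with a gap of 0.51 between them. The means of 9.64 ± 0.20 and 8.95 ± 0.04 (SD, n = 2) gave a 1.61-fold lower level in KO and a difference of -0.68 ± 0.16 (SE, limma unadjusted p = 0.0044, adjusted p = 0.12).

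The AKT kinases were closer between genotypes. Akt1, the broadly expressed isoform, was at 7.45 and 6.78 in WT and at 7.05 and 7.08 in KO, so both KO arrays lay between the WT arrays. Its difference was -0.05 ± 0.25 (SE, limma adjusted p = 0.95). Akt2, the isoform best known from insulin-responsive tissues, was at 7.76 and 7.51 in WT and at 7.36 and 7.39 in KO. Both KO arrays were lower by a gap of 0.13, and the difference was -0.27 ± 0.17 (SE, limma adjusted p = 0.5).

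Foxo1 encodes a forkhead factor that AKT inactivates. On its brighter probe set it stood at 5.70 and 5.63 in WT and at 4.98 and 4.80 in KO (log2). The groups were separated by 0.66 and each was tight. The means of 5.67 ± 0.05 and 4.89 ± 0.12 (SD, n = 2) were 1.72-fold apart, a difference of -0.78 ± 0.18 (SE, limma unadjusted p = 0.0037, adjusted p = 0.11). The other probe set gave 4.25 and 4.07 in WT and 4.02 and 4.07 in KO, a difference of -0.11 ± 0.17 (SE, adjusted p = 0.81), and lay below the median gene. The probe sets of Foxo1 thus disagreed in size, and their mean gave -0.44 with an adjusted p of 0.25, where the adjusted p over all alternatives ran from 0.059 to 0.73.

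Foxo3 encodes the FOXO factor best known for maintaining blood stem cells. It was at 6.76 and 6.33 in WT and at 6.04 and 5.99 in KO (log2). The KO arrays were close together and below both WT arrays by 0.29. The means of 6.55 ± 0.30 and 6.02 ± 0.04 (SD, n = 2) differed by -0.53 ± 0.21 (SE, limma unadjusted p = 0.040, adjusted p = 0.26), or 1.44-fold.

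**Figure D1:**
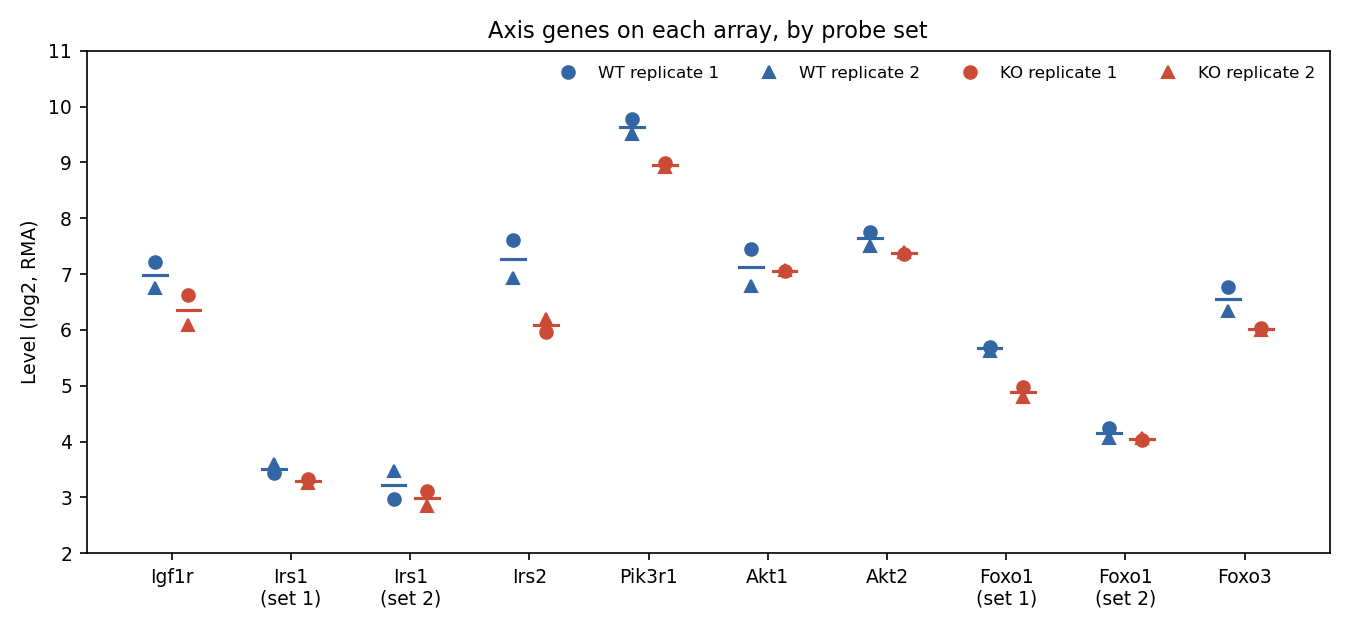
Level (log2) of each single-gene probe set of the axis on every array, with WT in blue, KO in red, replicate 1 as circles, replicate 2 as triangles and group means as bars. The groups stand apart for Irs2, with WT at 7.61 and 6.93 and KO at 5.96 and 6.19, while the KO arrays of Akt1, at 7.05 and 7.08, lie between its WT arrays.

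Both KO arrays lay below both WT arrays for 7 of the 8 genes, with Akt1 the exception. The same held for 22.9% of all genes and for 24.7% of the brighter genes. The genomic span of a gene moved with this count. Among the 11038 brighter genes with a known span, split into 5 groups of near equal size, the median difference was 0.16 in the group of shortest genes and -0.19 in the group of longest, which span at least 61 kb. In the group of longest genes 46.1% had both KO arrays below both WT arrays and 20.7% were nominally lower. Igf1r, Pik3r1, Foxo1 and Foxo3, with spans of 281, 87.5, 81.8 and 94.9 kb, belong to that group, and 4 of 4 were lower in both senses. Irs2, at 24.2 kb, and Akt1, at 21.1 kb, belong to the middle group, where the median was 0.11, 16.9% had both KO arrays below and 5.75% were nominally lower. Akt2, at 49.3 kb, lies between, in a group with a median of -0.01, where the shares were 25.8% and 8.38%. The part of span in the lower levels of the members was not tested.

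**Figure D2:**
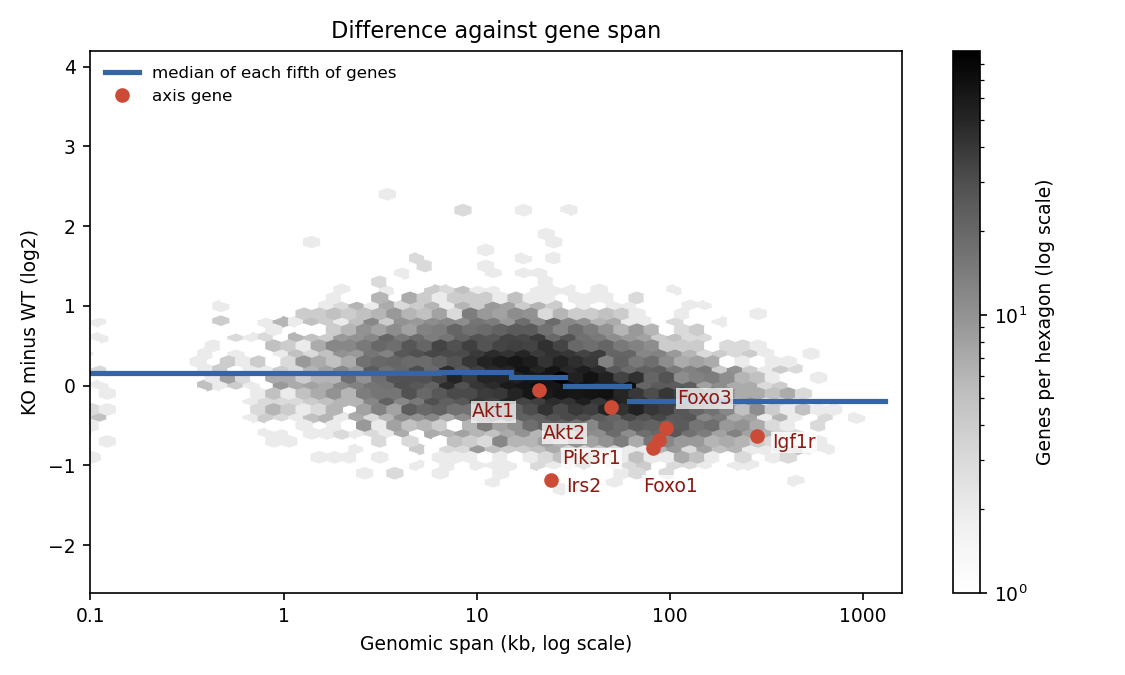
Difference between KO and WT (log2) against genomic span (kb, log scale) for the 11038 brighter genes with a known span, as a density, with the median of each span group in blue and 7 axis genes in red (Irs1 is not among the brighter genes). The medians run from 0.16 in the shortest genes to -0.19 in the longest, and Irs2, at -1.19, lies among genes whose median is 0.11.

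Single arrays set the calls. With a WT array left out, 1 WT array faces 2 KO arrays. The spread is then estimated from the KO pair alone, and the lone WT array is assumed to vary like it, although the KO pair was the tighter (SD of its differences over genes 0.279, against 0.382 for the WT pair). In that fit without WT replicate 2, 3 members were past the threshold, Irs2 at -1.54 (adjusted p = 0.011), Pik3r1 at -0.83 (adjusted p = 0.0082) and Foxo3 at -0.75 (adjusted p = 0.030), where 5.73% of all genes were called lower and 7.8% higher. Without WT replicate 1, Pik3r1 alone was past it, at -0.54 (adjusted p = 0.026), where 1.41% of all genes were lower and 6.5% higher, and the median of the 8 genes was -0.35. With either KO replicate left out, where the spread comes from the WT pair alone, limma called 0 members and 0 of all genes, Ncoa3 included, with 1471 and 1910 genes nominally different. The adjusted p over all alternatives ran from 0.011 to 0.74 for Irs2, from 0.0082 to 0.74 for Pik3r1 and from 0.030 to 0.77 for Foxo3. The difference of Igf1r was -0.36 without KO replicate 2 and -0.89 without KO replicate 1, and those of Foxo3 and Akt2 were -0.32 and -0.14 without WT replicate 1. Akt1 changed direction, to 0.28 without WT replicate 1.

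**Figure D3:**
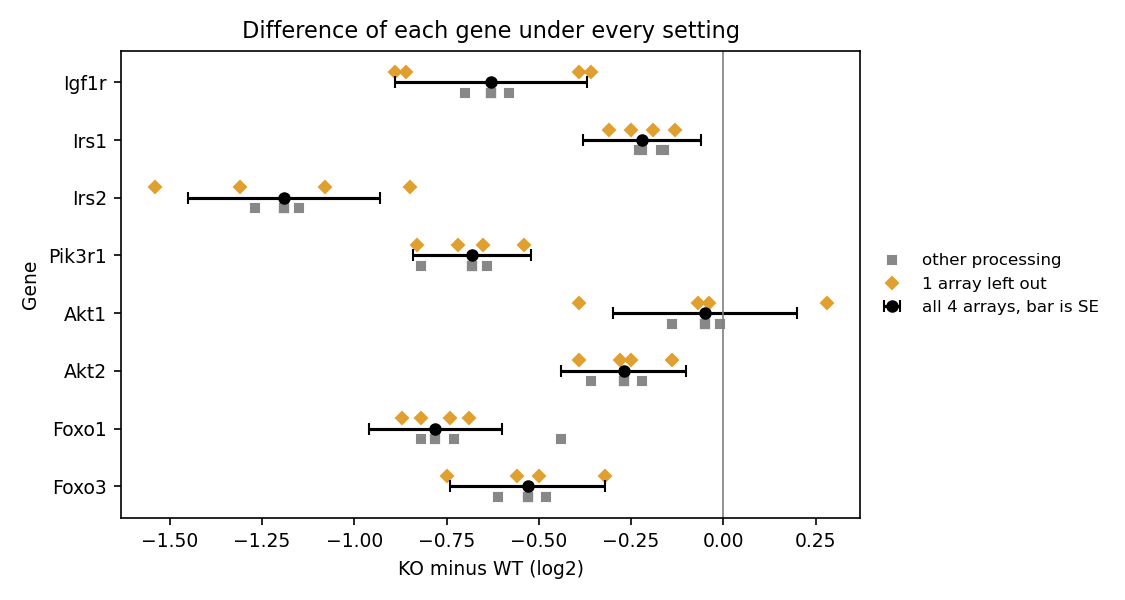
Difference between KO and WT (log2) of each axis gene with all 4 arrays (black, bar is the SE), with each array left out in turn (orange) and under the other processing alternatives (grey). All values for 7 genes are below 0, and Akt1 reaches 0.28 with WT replicate 1 left out.

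The wider pathway was described with 7 lists of textbook genes, which hold 169 measured genes besides the members. In limma 1 of them was called higher, Trib2, and 0 lower, where 0.397% of all genes were called higher and 0.113% lower. Nominally 13 were higher and 28 lower, against 10.5% and 6.93% of all genes. Both KO arrays lay below both WT arrays for 61 and above them for 36, against 22.9% and 25.1% of all genes. Trib2 encodes a tribbles pseudokinase, a family that binds AKT. It stood at 4.04 and 3.43 in WT and at 5.68 and 5.94 in KO (log2), so the groups were far apart. Its relatives Trib1 and Trib3 went the other way, at -0.63 ± 0.25 and -0.21 ± 0.16 (SE), each with both KO arrays below both WT arrays. Trib2 rose 4.21-fold (difference 2.07 ± 0.25, SE, limma adjusted p = 0.034). Its adjusted p was 0.61 without KO replicate 1 and 0.51 without KO replicate 2, against 0.0096 to 0.036 under its other alternatives.

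Ligands, receptors and binding proteins of insulin and IGF gave a median of -0.09 over 15 measured genes, of which 1 was nominally lower, 1 nominally higher and 0 past the threshold in limma. The nominal shares of all genes were 6.93% lower and 10.5% higher. The lower gene was Insr, the insulin receptor, at 7.12 and 6.74 in WT and 6.36 and 6.24 in KO. Its difference of -0.63 ± 0.20 (SE, adjusted p = 0.18) stood beside that of its relative Igf1r, also -0.63. The higher one was Ins2, an insulin gene, which was near the bottom of the array at 2.05 and 2.20 in WT and 2.47 and 2.57 in KO. Igf2r and Igfbp1, also named by the rule of smallest p, were dim, at -0.23 ± 0.16 and -0.26 ± 0.19 (SE).

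Receptor adaptors and their inhibitors gave a median of -0.13 over 20 genes, with 0 past the threshold in limma, 1 nominally higher and 2 nominally lower. The nominal shares of all genes were 10.5% higher and 6.93% lower. The higher gene was Socs1, an inhibitor of cytokine signalling, at 5.81 and 5.83 in WT and 6.59 and 6.62 in KO, a difference of 0.79 ± 0.17 (SE, adjusted p = 0.1). The lower ones were Gab1, a docking protein that binds p85, at -0.78 ± 0.26, and Sh2b3, a negative regulator of cytokine signalling in stem cells, at -0.45 ± 0.18 (SE). The gene of next smallest p was Sh2b1, an adaptor of the insulin receptor, at -0.68 ± 0.28 (SE). Without WT replicate 1 Gab1 was at -0.46 and Sh2b1 at -0.28, and without WT replicate 2 Sh2b1 was at -1.08.

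The PI3K enzymes and the phosphatases that oppose them gave a median of -0.34 over 22 genes, the lowest of the 7 lists with all arrays. Without WT replicate 1 it was -0.11, when the medians of the insulin and IGF list and of the FOXO targets were both -0.12. In limma 0 passed, and 7 were nominally lower and 0 nominally higher, against 6.93% and 10.5% of all genes. Both KO arrays lay below both WT arrays for 11 of the 22 and above for 1, against 22.9% and 25.1% of all genes. Pik3cg, the catalytic subunit p110 gamma of blood cells, stood at 7.65 and 7.47 in WT and at 6.81 and 6.28 in KO, a difference of -1.02 ± 0.23 (SE, adjusted p = 0.11). Pik3ap1, an adaptor of PI3K in B cells, was at -0.94 ± 0.23. The lipid phosphatase genes Inppl1 and Inpp4a were at -0.74 ± 0.20 and -0.84 ± 0.26 (SE), the latter at -0.49 without WT replicate 1. The other kinase genes of the list ran from -0.49 to 0.03, and those nearest 0 were Pik3cb at 0.03 and Pik3c3 at -0.02. The regulatory subunit genes of the list, Pik3r2 to Pik3r6, ran from 0.01 to 0.52. Pik3r3 was at 0.52 ± 0.28 and Pik3r2, the gene with both KO arrays above both WT arrays, at 0.43 ± 0.25 (SE). Of the 22 genes, 11 belong to the group of longest genes. Of these, 6 had both KO arrays below both WT arrays, as did 46.1% of that whole group, and the others of the 11 with both below lay outside it.

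Regulators and relatives of AKT gave a median of -0.02 over 22 genes, with Trib2 past the threshold, 2 nominally higher and 3 nominally lower. Apart from Trib2, the smallest p-values were those of Gsk3b, a kinase that AKT inhibits, at -0.59 ± 0.19, Ppp2cb, a catalytic subunit of the phosphatase that can remove AKT phosphorylation, at 0.64 ± 0.21, and Sgk3, an AKT-like kinase, at -0.45 ± 0.17 (SE). Ppp2cb was at 0.36 without WT replicate 1. Genes of the mTOR branch gave a median of 0.01 over 27 genes, with 4 nominally higher, 2 nominally lower and 0 past the threshold in limma. For both lists the nominal shares of all genes were 10.5% higher and 6.93% lower. Eif4ebp1, the translational repressor that mTOR phosphorylates, was at 7.30 and 7.08 in WT and at 8.18 and 8.21 in KO. The groups were well apart and differed 2.01-fold (limma adjusted p = 0.071). With the brighter genes alone in the fit its adjusted p was 0.047, and over all alternatives it ran from 0.0098 to 0.74. Lamtor2 and Lamtor3, which anchor mTOR at the lysosome, were at 0.51 ± 0.16 and 0.52 ± 0.17, and Ulk1, the autophagy kinase that mTOR restrains, was at -0.79 ± 0.26 (SE), or -0.44 without WT replicate 1.

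Partners and modifiers of FOXO proteins gave a median of -0.14 over 27 genes, with 0 past the threshold in limma, 3 nominally lower and 2 nominally higher. These nominal counts were not far from the nominal shares of all genes, 6.93% lower and 10.5% higher. Both KO arrays lay below both WT arrays for 13 of the 27 and above for 6, against 22.9% and 25.1% of all genes. The nominally lower ones encode enzymes that modify FOXO and many other proteins. Crebbp, an acetyltransferase, stood at 10.05 and 9.93 in WT and at 9.06 and 8.88 in KO, with no overlap, a difference of -1.02 ± 0.15 (SE, adjusted p = 0.056). Its relative Ep300 was at -0.88 ± 0.20 (SE), and Setd7, a lysine methyltransferase, at -0.84 ± 0.22. The nominally higher ones were Prmt1, an arginine methyltransferase gene, at 0.64 ± 0.17, and Ywhab, at 0.47 ± 0.18 (SE). Ywhab encodes a 14-3-3 protein of the kind that binds phosphorylated FOXO.

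Values of genes described as FOXO targets lay on both sides of 0. The list held 40 measured genes, Irs2 among them, with a median of -0.17. In limma 0 passed, while 12 were nominally lower and 3 nominally higher, and without Irs2 11 of 39 were nominally lower. Both KO arrays lay below both WT arrays for 19 of the 40 and above for 10, where 22.9% and 25.1% of all genes did so, and 6.93% and 10.5% were nominally lower and higher. Of the 40, 3 belong to the group of longest genes, and 2 of these had both KO arrays below both WT arrays. That group holds 2208 of the 11038 brighter genes with a span, so the dimmer targets could not belong to it. Cdkn1a, the cell cycle inhibitor p21, was at 10.67 and 10.54 in WT and at 9.75 and 9.74 in KO, a difference of -0.86 ± 0.13 (SE, adjusted p = 0.061). Bcl2l11, the pro-apoptotic BIM, was at 6.75 and 6.07 in WT and at 5.39 and 5.42 in KO, a difference of -1.01 ± 0.25 (SE, adjusted p = 0.13) that was -0.67 without WT replicate 1. Against these, Prdx3, a mitochondrial peroxiredoxin, was at 6.76 and 7.06 in WT and at 8.21 and 8.02 in KO, a difference of 1.21 ± 0.19 (SE, adjusted p = 0.062). The other nominally higher genes were Sod2, the mitochondrial superoxide dismutase, at 0.65 ± 0.21, and Bnip3, a mitochondrial protein gene of the mitophagy machinery, at 0.45 ± 0.17 (SE). Other targets of like function had other values, with the pro-apoptotic Bbc3 at 0.45 and the cell cycle inhibitor Cdkn1b at -0.12. Of further antioxidant genes in the list, Cat was at 0.02 and Sesn3, which was nominally lower, at -0.68 ± 0.22 (SE).

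**Figure D4:**
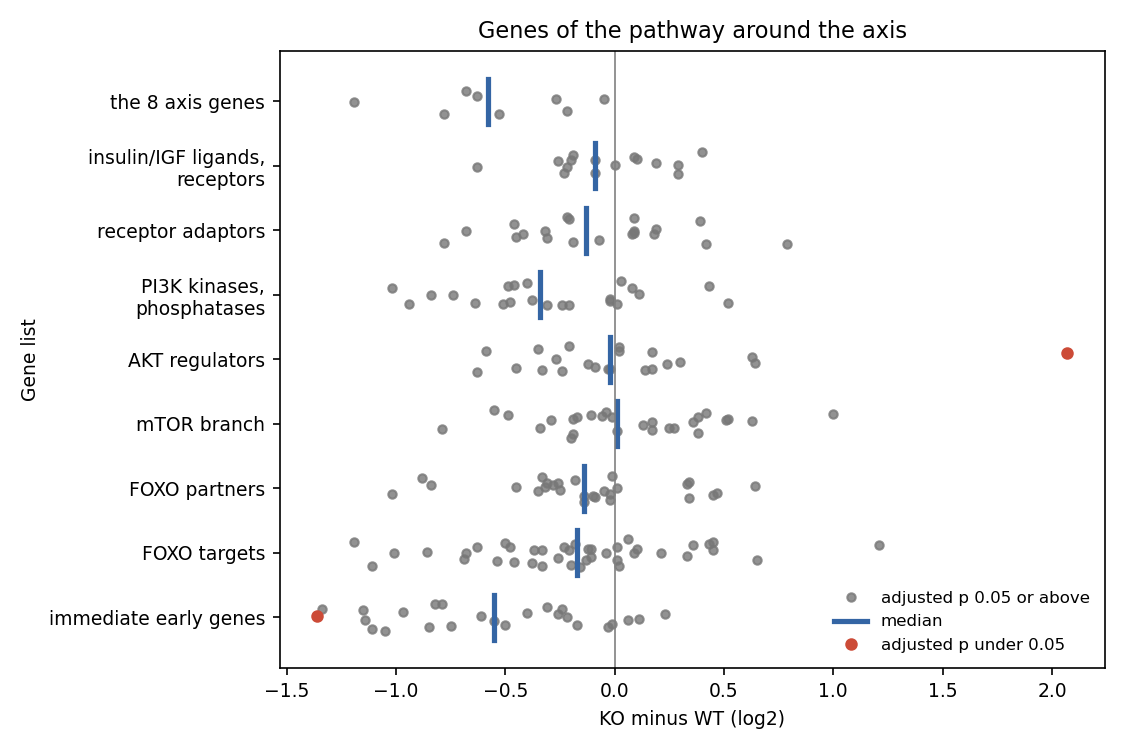
Difference between KO and WT (log2) of each measured gene in the axis, the 7 pathway lists and the immediate early list, with list medians as blue bars and genes at an adjusted p under 0.05 in red. The medians are -0.58 for the axis, -0.34 for PI3K enzymes and phosphatases, 0.01 for the mTOR branch and -0.55 for immediate early genes, and Trib2, at 2.07, stands apart on the right.

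Immediate early genes are those whose transcripts respond within minutes to stimulation and to tissue handling. Of 25 measured, 1 passed the threshold, 15 were nominally lower and 0 nominally higher, with a median of -0.55 that was -0.45 without WT replicate 1. Among all genes, 0.113% were called lower, 6.93% were nominally lower and 10.5% nominally higher. Both KO arrays lay below both WT arrays for 16 and above them for 3, against 22.9% and 25.1% of all genes. Junb and Jund were at -0.03 and 0.06, Junb at 0.47 without WT replicate 1. Nr4a3 fell by 1.36 on the log2 scale (SE 0.18, limma adjusted p = 0.048), a call lost without KO replicate 1 (adjusted p = 0.73), without KO replicate 2 (adjusted p = 0.55) and with the replicate number as a block (adjusted p = 0.053). Their summed linear level was 18461 and 11429 in the WT arrays and 10354 and 10195 in the KO arrays, so in the sum, which the brightest genes weigh on most, WT replicate 1 was high. Single genes differed in this, with Jun at 11.71 and 10.28 in WT but Nr4a2 at 7.77 and 7.78 and Egr2 at 5.94 and 6.24. WT replicate 1 was the higher WT array for 7 of the 8 axis genes, all but Irs1. The share of all genes for which this held was not counted. The array median over genes was 4.302 on WT replicate 1 and 4.368 on WT replicate 2. Of the 12 FOXO targets that were nominally lower, 1, Klf2, is in the immediate early list too. This overlap depends on which genes were put on each list, and does not set the FOXO targets apart from handling genes. The part of handling genes, and of the erythroid and neutrophil markers given above, in the lower levels of the axis was not tested.

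The genes whose values over the 4 arrays were most like those of Irs2, each centred on its own mean, were Itgam, Mdga1 and Kdm7a, at root mean square distances of 0.0182, 0.0701 and 0.107 (log2). Itgam, which encodes the myeloid integrin CD11b, stood at 6.50 and 5.78 in WT and at 4.80 and 5.06 in KO. Mdga1, a membrane-anchored adhesion gene, was at 7.15 and 6.42 in WT and at 5.64 and 5.71 in KO. Kdm7a, a histone demethylase gene, was at 6.88 and 6.12 in WT and at 5.44 and 5.51 in KO. In each of them WT replicate 1 was the highest array, as in Irs2, and without it Kdm7a differed by -0.64 in place of -1.02. With 4 arrays such likeness describes these samples and no more.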

How the data were processed

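RNA of 2 WT and 2 KO samples was measured on 1 array each. The authors deposited normalized log2 values for 41345 probe sets; per the submitters' processing notes, RMA and Affymetrix Expression Console 1.2.1 were used, with no settings or genome build named there. Sequencing depth does not apply, and the number of arrays limits the precision. No detection calls, scan dates or slides were used here, so no array batch was tested. Gene names came from the platform annotation, and the 23521 probe sets with 1 symbol were kept. A gene was represented by its probe set of highest mean (22180 genes), with no filter on low values.

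All 4 arrays entered a linear model of genotype (lmFit and eBayes with an intensity trend in limma 3.58.1, R 4.3.3), tested two-sided with Benjamini-Hochberg adjustment over all genes and a threshold of 0.05. A second fit over all single-gene probe sets gave the values of the members with 2 probe sets. Errors of differences are moderated standard errors. An exact permutation test of 2 against 2 cannot go below 0.333 and was not used. Spans came from the RefSeq table of GRCm38.p6, which gave one for 99.5% of the brighter genes, those no lower than the median gene. The code was tested on simulated data. The named genes are the members, the 4 genes of smallest p in each pathway list with any past the threshold, Ncoa3, and the 3 nearest to the member of smallest p. Sod2, Bnip3, Ywhab, Klf2, Nr4a3, Nr4a2, Egr2, Jun, Junb, Jund, Bbc3, Cdkn1b, Pik3cb, Pik3c3, Slc4a1, Trim10 and Rhag were named after their values were seen, as were the LSK genes and Cd3d and Ly6g among the defining markers. So were the bright marker genes Mpo, Ctsg, Elane, Prtn3, Ly6c2 and Nkg7. The same holds for Slamf1, Cd48, Trib1, Trib3, Pik3r2 to Pik3r6, Cat and Sesn3. The counts and calls over named genes under the alternatives leave out these and the bright marker genes. The members and lists were chosen with earlier results of these data known.

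Same-numbered WT and KO arrays deviated from their group means with r = 0.113 across genes, and the labels give no shared source for a number. Alternatives were a replicate block, quantile normalization, centred array medians, the mean of probe sets, the brighter genes alone, no intensity trend, and each array left out.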

Additional observations from a re-analysis of the deposited data

How the results depend on the processing

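Over 79 pairs of a member and an alternative, 74 kept their direction and side of the threshold, 4 passed it with an array left out, and 1 turned, Akt1, which ran from -0.39 to 0.28 with an array left out. The replicate block gave 83 genes higher and 28 lower against 88 and 25 without it, 0 members called, and of the named genes it changed the call of Nr4a3 alone (adjusted p = 0.053). The arrays may share no more than a number, since 2 pairs with r = 0.113 do not show a pairing. Counts over all genes were 196 higher and 51 lower with centred array medians, 208 and 81 with the brighter genes alone, and 93 and 61 after quantile normalization, which made the share of higher genes 60.4% instead of 77.9%. With an array left out, they ran from 0 to 1730 higher and from 0 to 1272 lower, and from 0 to 3 for the members and for their probe sets. Pathway genes besides the members numbered 1 higher and 0 lower. They numbered 2 higher with centred medians, 3 higher and 2 lower with the brighter genes alone, and 2 lower after quantile normalization, and ran from 0 to 12 higher and from 0 to 33 lower with an array left out. The insulin and IGF median was -0.09 with all genes and 0.10 with the brighter genes alone, where Irs1 has no value. With an array left out, the medians of receptor adaptors ran from -0.30 to 0.07 and of AKT regulators from -0.13 to 0.07, above 0 without WT replicate 1. Those of the mTOR branch ran from -0.13 to 0.23, of the insulin and IGF list from -0.23 to 0.08 and of the PI3K list from -0.38 to -0.11. Leaving out an array leaves 1 in its group, whose spread is taken from the other group. Over all named genes, members included, 521 values kept direction and side, 59 newly passed, 9 no longer passed (Ncoa3, Trib2, Nr4a3 and Rhag without either KO array, and Nr4a3 with the block) and 12 turned. Besides Akt1 these were Jun and genes near 0. With an array left out, Jun ran from -0.97 to 0.46, Junb from -0.52 to 0.47, Cdkn1b from -0.31 to 0.08, Pik3cb from -0.21 to 0.28, Pik3c3 from -0.07 to 0.02 and Trim10 from -0.20 to 0.39. With all arrays, Junb and Pik3c3 were at 0.02 with centred medians and Jund at -0.04 with the mean of probe sets. The causes were not tested. Irs1, the second probe set of Foxo1 and Ins2 lie at dim levels, where the array limits what can be seen.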
